A study of Mus musculus with 2 samples.

Results

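The genes described here are 10 genes of the epidermal serine protease network: the kallikreins Klk5, Klk7, Klk8, Klk10 and Klk11, the membrane-anchored proteases St14 (matriptase) and Prss8 (prostasin), the Kunitz-type inhibitors Spint1 and Spint2, and the secreted inhibitor Spink5 (LEKTI). They were chosen by name from the function of their products, though earlier results of these data were known at the time. All 10 were found among the 27998 genes counted. Single-cell RNA sequencing libraries had been made from the epidermis of 2 newborn (postnatal day 0) male C57BL/6J mice, 1 library for each. Both mice were Chrm3 KO (knockout), lacking the M3 receptor for acetylcholine, and the labels name no treatment. Every cell therefore carried the same genotype, and wild-type libraries were not analysed here, so each value is a level in KO epidermis and no genotype effect was tested. Tissue came from dorsal skin whose epidermis had been separated from the dermis and depleted of dead cells. The comparisons are between cell classes of the same 2 mice, which asks where in the interfollicular epidermis (IFE) and its appendages each protease and each inhibitor was transcribed.

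Corneocytes are held together by corneodesmosomes, and the kallikreins are trypsin-like or chymotrypsin-like proteases that cut the proteins of these junctions as the outermost cells are shed. KLK5 can activate itself and other kallikreins, KLK7 is the chymotryptic enzyme of the stratum corneum, and LEKTI, made by Spink5, is the inhibitor that holds both in check. Loss of SPINK5 causes Netherton syndrome, in which the barrier is lost through excess protease activity. Matriptase and prostasin act together at the keratinocyte (KC) surface in barrier formation and profilaggrin processing, and HAI-1 and HAI-2, made by Spint1 and Spint2, inhibit matriptase.

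The libraries held 10816 barcodes and 109756784 UMIs (unique molecular identifiers, which count each captured transcript once) in mouse 1, and 15867 barcodes and 166441732 UMIs in mouse 2. Of these, 7607 and 11881 cells passed the filters, with a median of 10480 and 10577 UMIs per cell, and 34 of the kept barcodes had the same sequence in both libraries. Over the kept cells, 13 and 19 UMIs were counted for Chrm3, so some transcripts of the targeted gene were counted in both KO mice, and a UMI count does not show from which part of the gene they came. Cells were clustered without the 10 genes and were given names from marker genes. IFE KCs fell into resting basal (1552 and 2758 cells in mouse 1 and mouse 2), dividing basal (854 and 1585), transition (398 and 591), differentiated (182 and 216) and terminally differentiated KCs (46 and 60). Resting basal KCs carried the basal keratin Krt14 at 13204 and 13825 CPM, against 1332 and 1780 CPM in differentiated KCs. Levels are in CPM, the UMIs of a gene scaled by all UMIs of the class in that mouse. A level is compared between cell classes, and levels of different genes were ranked only to choose which network genes to name. The smallest class, terminally differentiated KCs, held 299283 and 626558 UMIs in all, and its median depth was 4596.5 and 8970 UMIs per cell, against 23568 and 22658 in differentiated KCs. At least 1% of the UMIs came from Lor and the Lce1 genes, which mark the granular layer, in 35 of the 46 barcodes of mouse 1 and 24 of the 60 of mouse 2. Krt14 was at 4003 and 5270 CPM in this class, higher than in differentiated KCs in both mice. The study reports that basal genes were raised in terminally differentiated KCs of Chrm3 KO mice against wild-type. Whether the Krt14 UMIs came from such KCs or from other cells was not tested, and without wild-type libraries the 2 cannot be told apart.

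The 5 kallikreins stand in a row on chromosome 7 of GRCm38 (mm10), all on the plus strand, within 76578 bases from 43774604 to 43851181. In order these are Klk11 (43774604 to 43779263), Klk10 (43781035 to 43785410), Klk8 (43797577 to 43803826), Klk7 (43811294 to 43816359) and Klk5 (43841971 to 43851181). Klk9 lies between Klk10 and Klk8, and Klk6 between Klk7 and Klk5. Spint2 (29256323 to 29281912) and Prss8 (127925716 to 127930104) lie elsewhere on the same chromosome, on the minus strand. St14 is on chromosome 9 from 31089402 to 31131853 (minus strand), and Spint1 on chromosome 2 from 119237362 to 119249527 (plus strand). Sequence upstream of the start, taken from RefSeq (GRCm38.p6), was at hand for 7 of the 10 genes. It is shown for Klk10, Klk8, Klk7 and Klk5, neighbours on the chromosome. Over the cell classes the levels of Klk5 and Klk7 followed each other closely, and those of Klk8 and Klk10 followed them less. The runs read 5′ to 3′ on the plus strand. They lie at chr7:43780804-43781034 for Klk10, chr7:43797327-43797576 for Klk8, chr7:43811044-43811293 for Klk7 and chr7:43842068-43842268 for Klk5. Those of Klk8, Klk7 and Klk5 end just before the RefSeq transcript start. The run of Klk10 ends just before its GENCODE start, which lies upstream of the RefSeq start. The gene spans above are from GENCODE, whose Klk5 begins upstream of the RefSeq start, so the run of Klk5 lies inside that span. For Klk10 and Klk5 the window of 250 bases overlapped an annotated transcript. The run of Klk10 was therefore shortened at its 3′ end to 231 bases, and that of Klk5 at its 5′ end to 201 bases. Capitals mark CACCC, the core of the KLF motif, or its reverse complement GGGTG.
Klk10 upstream: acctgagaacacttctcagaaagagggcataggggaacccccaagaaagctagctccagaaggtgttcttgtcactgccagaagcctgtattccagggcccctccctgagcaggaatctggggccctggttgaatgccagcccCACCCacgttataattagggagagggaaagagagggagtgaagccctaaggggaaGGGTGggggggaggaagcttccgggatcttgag
Klk8 upstream: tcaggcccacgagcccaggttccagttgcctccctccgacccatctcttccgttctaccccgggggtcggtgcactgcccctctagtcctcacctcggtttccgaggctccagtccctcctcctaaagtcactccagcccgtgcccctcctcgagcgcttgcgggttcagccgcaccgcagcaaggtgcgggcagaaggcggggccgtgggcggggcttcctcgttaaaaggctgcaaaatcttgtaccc
Klk7 upstream: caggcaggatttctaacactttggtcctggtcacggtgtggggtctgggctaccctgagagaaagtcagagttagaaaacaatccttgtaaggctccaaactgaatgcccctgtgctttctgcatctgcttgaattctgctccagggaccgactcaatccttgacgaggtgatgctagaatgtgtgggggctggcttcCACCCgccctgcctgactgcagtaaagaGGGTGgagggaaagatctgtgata
Klk5 upstream: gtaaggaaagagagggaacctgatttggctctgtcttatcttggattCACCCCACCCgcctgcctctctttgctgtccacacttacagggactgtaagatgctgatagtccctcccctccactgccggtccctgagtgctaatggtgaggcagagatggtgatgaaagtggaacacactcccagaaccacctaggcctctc
CACCC was found on either strand at 2 places each upstream of Klk10, Klk7 and Klk5, the 2 in Klk5 lying next to each other, and at none upstream of Klk8. It was present in 52.0% of the 32851 windows of 250 bases in the table. The AP-1 motif TGANTCA (6.75% of all windows) and the GRHL motif AACCNGTT (1.79%) had no match on either strand in the 4 runs. A match of letters is a description and not a site shown to be bound.

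Klk5, Klk7, Klk8 and Spink5 were low in basal KCs, and each was higher in the differentiated class as a whole, by 17.2 to 31.0 times. Klk7 was at 14.4 and 21.0 CPM in resting basal KCs of mouse 1 and mouse 2 and at 576 and 391 CPM in differentiated KCs (484 ± 131, SD, n = 2 mice). Both differentiated values lay far above both basal values, and the log2 difference was 4.95 ± 0.31 (SE), with an adjusted p of 3.87e-08 in edgeR's quasi-likelihood test on UMI sums per mouse and class. The p-values rest on a spread between the 2 mice that was estimated over all classes of the fit and moderated over genes. They do not measure the spread within the compared classes alone, and sums of the same mouse were treated as independent. Klk5 went from 7.63 and 8.11 CPM to 193 and 102 CPM, a log2 difference of 4.42 ± 0.27 (edgeR adjusted p = 2.80e-08). Klk8, a trypsin-like kallikrein also known as neuropsin, went from 18.4 and 19.01 CPM to 334 and 257 CPM, a log2 difference of 4.18 ± 0.19 (edgeR adjusted p = 2.75e-09). For all 3 kallikreins mouse 1 was the higher of the pair in differentiated KCs, by more than the counting error of either mouse.

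Spink5, on chromosome 18 from 43963235 to 44022501 (plus strand), was also higher in differentiated than in resting basal KCs, as were the kallikreins that its product inhibits. Its level was 25.2 and 36.2 CPM in resting basal KCs and 523 and 406 CPM in differentiated KCs, without overlap, and the log2 difference was 4.10 ± 0.30 (edgeR adjusted p = 1.45e-07). The low basal values of Spink5 and Klk7 were close to those in melanocyte-like cells, which are not KCs and give a measure of free transcripts. There Spink5 was at 22.3 and 29.4 CPM and Klk7 at 13.4 and 18.0 CPM, each slightly below the resting basal value of the same mouse. The difference was not tested, so how much of the basal level of these genes was background is not known. Klk5 (2.16 and 4.62 CPM), Klk8 (4.97 and 7.17 CPM) and Klk10 (0.864 and 1.82 CPM) were lower in melanocyte-like cells than in resting basal KCs in both mice. Other classes that are not KCs differed from this. Klk8 in Langerhans-like cells was near the resting basal level (log2 difference -0.04, edgeR adjusted p = 0.931). Klk5 had a mean of 2.74 CPM there, on 5 and 5 UMIs, and was not called (log2 difference -1.36, edgeR adjusted p = 0.0816). In dermal-like cells Klk5 had a mean of 12.4 CPM, on 3 and 4 UMIs, against 7.87 CPM in resting basal KCs. Klk8 had a mean of 3.70 CPM in dermal-like cells, on 1 and 1 UMI. Dermal-like cells were not tested.

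The other kallikreins behaved differently. Klk11 rose less, from 9.14 and 10.5 CPM to 35.0 and 35.6 CPM (log2 difference 2.03 ± 0.13, edgeR adjusted p = 5.95e-08). Klk10 was at 11.4 and 11.9 CPM in resting basal and 9.78 and 10.3 CPM in differentiated KCs. The difference of Klk10 was -0.01 ± 0.32 on the log2 scale, with a 95% interval from -0.64 to 0.61, and did not pass the test (edgeR adjusted p = 0.977).

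Among the membrane proteases, Prss8 was near the counting limit in basal KCs and rose. It was counted 23 and 43 times in resting basal KCs (1.58 and 1.66 CPM) and 43 and 60 times in the far fewer differentiated KCs (8.76 and 10.3 CPM), a log2 difference of 2.75 ± 0.22 (edgeR adjusted p = 3.31e-07). The basal values of Prss8 lay within the counting error of those in melanocyte-like cells (1.30 and 1.46 CPM). Of the melanocyte-like cells 9.38% and 11.3% were called doublets, and without doublets Prss8 was at 0.531 and 0.910 CPM in them and at 1.63 and 1.72 CPM in resting basal KCs. St14 rose least of the genes that passed, from 9.21 and 10.5 CPM to 21.8 and 12.4 CPM, and its log2 difference was 0.97 ± 0.23 (edgeR adjusted p = 0.00287). The differentiated value of mouse 2 was only slightly above its basal value.

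The Kunitz-type inhibitors differed from each other. Spint1 rose from 17.5 and 19.4 CPM to 76.8 and 64.7 CPM (log2 difference 2.13 ± 0.13, edgeR adjusted p = 2.59e-08). Spint2 was about level between these 2 classes, with 198 and 179 CPM in resting basal and 205 and 176 CPM in differentiated KCs. These values of Spint2 overlapped, and the log2 difference of 0.22 ± 0.11 did not pass (edgeR adjusted p = 0.108). With the mouse as a block it did, at the same size and an adjusted p of 0.00500.

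In all, 8 of the 10 genes were higher and 0 lower in differentiated than in resting basal KCs, against 28.9% higher and 29.8% lower (58.7% called) of the 12019 genes tested. The median log2 difference of the 10 was 2.44, and that of all genes tested was -0.04.

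**Figure D1:**
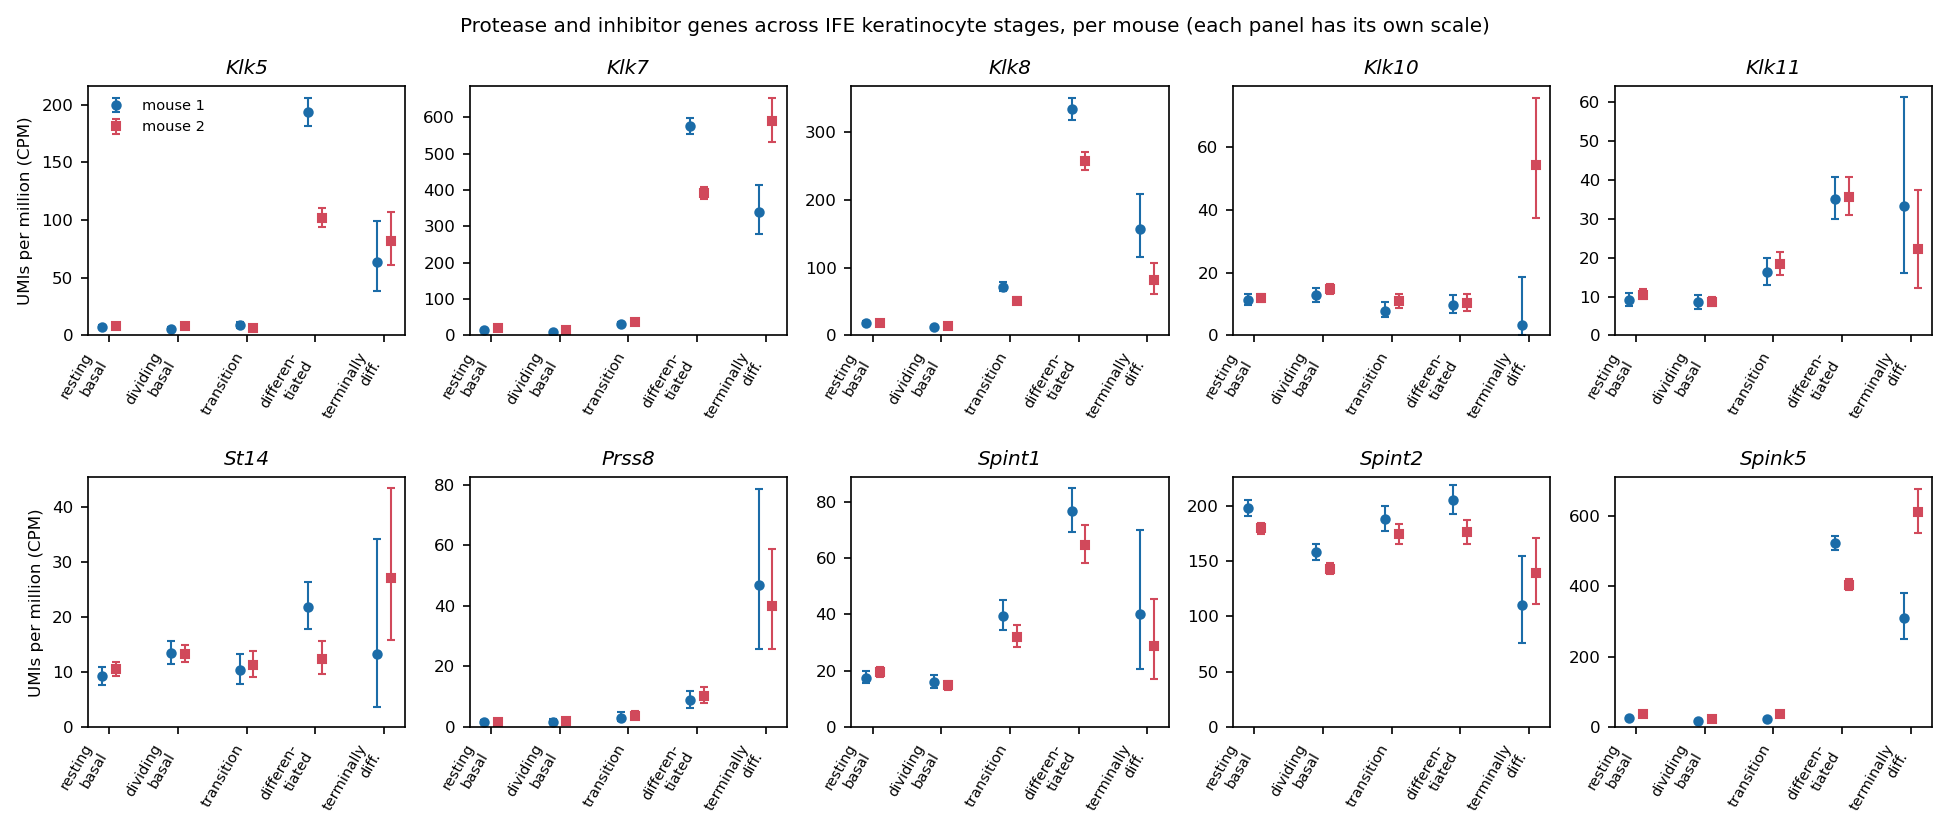
Levels of the 10 genes in the IFE classes of each mouse, in CPM on linear axes from 0, each panel with its own scale, with exact 95% Poisson intervals that cover counting error only. Klk5, Klk7, Klk8 and Spink5 stand at least 10 times higher in differentiated than in resting basal KCs of both mice, while Klk10 and Spint2 stay within narrow ranges up to that class.

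The steps before differentiation separated the genes further. Transition KCs, which still carried basal keratins (Krt14 at 12466 and 15483.5 CPM), were higher than resting basal KCs in 5 of the 10 genes and lower in 0, against 16.2% higher and 16% lower (32.2% called) of all genes tested. Klk8 had risen most, to 71.9 and 51.1 CPM (log2 difference 1.80 ± 0.19, edgeR adjusted p = 1.87e-05). Klk7 was at 31.9 and 36.4 CPM, above both basal values, with a log2 difference of 1.03 ± 0.31 (edgeR adjusted p = 0.0232). Prss8 (log2 difference 1.16), Spint1 (1.04) and Klk11 (0.91) were also higher, with adjusted p of 0.00400, 7.90e-05 and 0.000331 in the same test. Klk5 and Spink5 had not moved by a detectable amount. Klk5 was at 9.13 and 6.82 CPM (log2 difference 0.08, 95% interval -0.61 to 0.78), and Spink5 was at 21.9 and 35.6 CPM (0.01, from -0.59 to 0.62). Whether Klk8 rose earlier than Klk5 or Spink5 was not tested as a difference between genes.

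In the class named dividing basal KCs, Spint2 was lower than in resting basal KCs, at 158 and 143 CPM (log2 difference -0.43 ± 0.11, edgeR adjusted p = 0.0151). This class joined 2 clusters. The larger one (1563 cells) had less of the proliferation marker Mki67 than the other (53.3 against 535 CPM). This was above the resting basal clusters, at 8.57, 10.7 and 21.6 CPM. The larger cluster had no marker of division among its leading genes, while 3 of the 14 dividing markers were enriched in it. Spint2 was at 149 and 136 CPM in that cluster and at 170 and 151 CPM in the cluster rich in Mki67 (876 cells), where the resting basal clusters ranged from 166 to 234 CPM in mouse 1 and from 157 to 205 CPM in mouse 2. The call for Spint2 was lost at a clustering resolution of 1.2 (log2 difference -0.16, edgeR adjusted p = 0.355), without integration (-0.25, 0.137) and without cells of 5% or more mitochondrial UMIs (-0.48, 0.106). It was the only one of the 10 genes called, against 7.65% lower and 12.8% higher (20.4% called) of all genes tested. With the mouse as a block, 5 of the 10 genes were called lower, as the number of genes called in all went from 2454 to 4596. The values of St14 (13.5 and 13.3 CPM) lay above both resting basal values but did not pass (log2 difference 0.33, edgeR adjusted p = 0.290).

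Within the differentiated class, Klk5 and Spink5 transcripts were concentrated in the cells with the most Lor (loricrin, the major protein of the cornified envelope). The differentiated KCs of each mouse were put in order of Lor level and divided into 3 parts of 60 to 72 cells. In the part with the most Lor, Klk5 was at 484 and 236 CPM, against 26.6 and 23.1 CPM in the part with the least. Spink5 was at 1260 and 989 CPM against 42.3 and 41.9 CPM. These cells held 92.9% and 87.7% of the Klk5 UMIs of the class and 89.6% and 92.2% of its Spink5 UMIs. For Klk8 they held 70.4% and 59.7%, and for Klk7 75.0% and 70.1%. Spint2 showed no such concentration, with 35.9% and 39.7% of its UMIs in these cells. The split gave values in both mice and no test, since the cells of a mouse are not replicates.

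Klk7 was high at both ends. It was at 325 and 276 CPM in the cells with the least Lor, 150 and 114 CPM in the middle part, and 1163 and 725 CPM in the part with the most. The cells with the least Lor also carried the most Krt79, a keratin of the upper hair follicle, at 3495 and 3151 CPM, against 1188 and 999 CPM in the middle part. The summed level of the 9 upper follicle markers of the list was 6415 and 5019 CPM in the cells with the least Lor, 1935 and 2183 in the middle and 4146 and 3099 in those with the most. The part of upper follicle cells in the Klk7 level of the class was not tested.

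**Figure D2:**
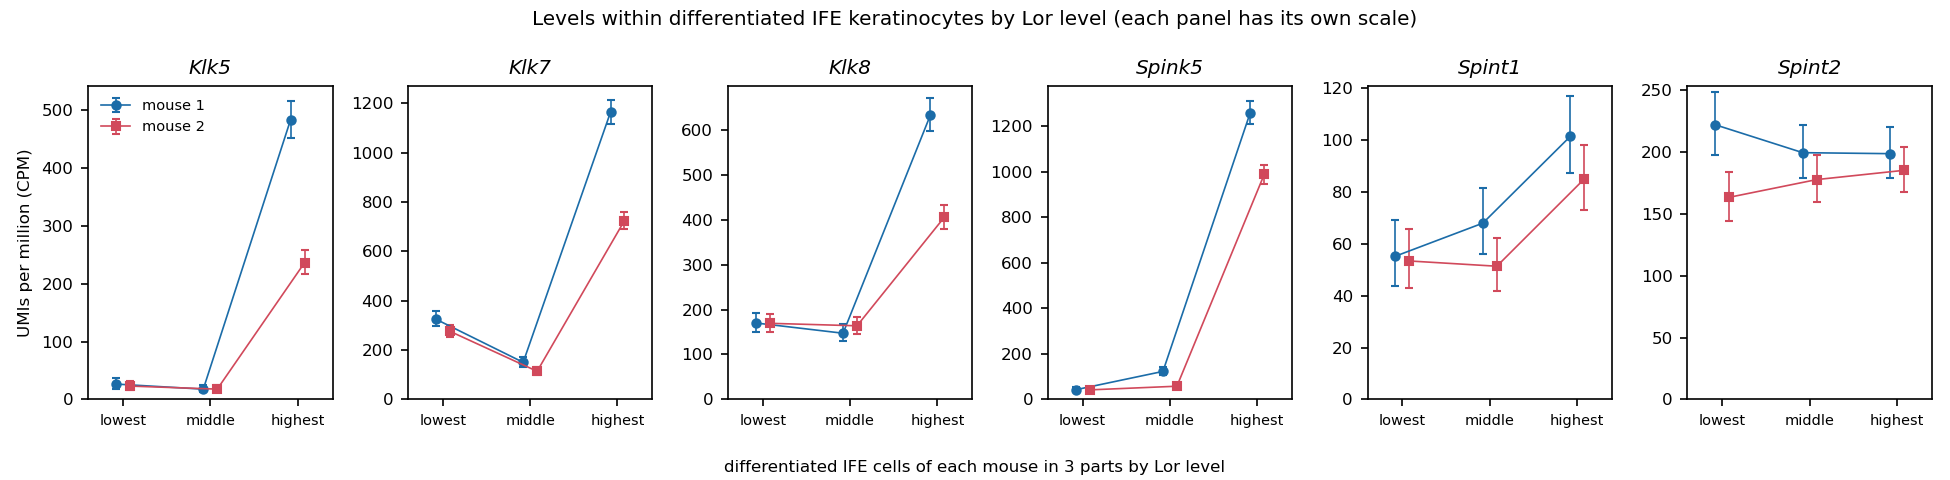
Levels (CPM, linear axes from 0, each panel with its own scale) in the differentiated KCs of each mouse divided into 3 parts by their Lor level, with exact 95% Poisson intervals. Klk5 and Spink5 are at 484 and 236 and at 1260 and 989 CPM in the part with the most Lor, Klk7 is lowest in the middle part of both mice, and Spint2 is nearly level.

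Single cells showed the same unevenness. The tenth of the differentiated KCs with the most Klk5 (19 and 22 cells) held 88.4% and 83.0% of the class's Klk5 UMIs, and the corresponding shares were 80.4% and 85.9% for Spink5, 74.3% and 74.5% for Klk7, and 58.1% and 50.9% for Klk8. The highest single cell had 291 and 245 UMIs of Spink5 and 229 and 184 of Klk7, while the median cell had 1 of Spink5 and 0 of Klk7. Klk8 was spread more widely, with at least 1 UMI in 84.6% and 82.9% of the differentiated KCs and a median of 4 and 3 UMIs per cell. Both Klk7 and Spink5 were counted in 27.5% and 24.5% of differentiated KCs, Klk7 alone in 20.3% and 23.1%, and Spink5 alone in 34.1% and 28.7%. Because differentiated KCs were deeper than other cells, shares were also taken after each cell was thinned to 3000 UMIs. Klk7 was then detected in 29.8% and 26.9% of differentiated KCs (47.8% and 47.7% before thinning), against 4.40% and 6.55% of resting basal and 3.54% and 6.00% of melanocyte-like cells. Thinned shares for Spink5 were 27.1% and 22.2%, against 8.28% and 11.5% of resting basal and 6.84% and 9.90% of melanocyte-like cells. Resting basal KCs (median depth 8725 and 8904.5 UMIs) were thus near the share in cells that should lack these transcripts (8786 and 9674.5 UMIs).

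From differentiated to terminally differentiated KCs the genes parted. Markers of other cells moved with this step, as the 14 dividing markers summed to 2392 and 1732 CPM against 206 and 285 CPM in differentiated KCs, and the 8 melanocyte markers to 254 and 316 against 21.0 and 93.1 CPM. None of either list was at 0 in the terminally differentiated KCs of either mouse, and their part in the results was not tested. Prss8 rose again, from 8.76 and 10.3 CPM to 46.8 and 39.9 CPM, a log2 difference of 1.81 ± 0.27 (edgeR adjusted p = 0.000242). These levels rest on 14 and 25 UMIs, and the intervals of both mice (25.6 to 78.5 and 25.8 to 58.9 CPM) lay above those of differentiated KCs. Klk8 fell to 157 and 81.4 CPM (log2 difference -1.78 ± 0.24, edgeR adjusted p = 0.000153), and Spint1 fell to 40.1 and 28.7 CPM (-1.45 ± 0.24, edgeR adjusted p = 0.000613). Klk5 fell by 1.30 ± 0.36 on the log2 scale (edgeR adjusted p = 0.0149), with 63.5 and 81.4 CPM, below both differentiated values. Spint2 (log2 difference -0.90) and Klk11 (-0.77) were also lower, with adjusted p of 0.000915 and 0.0322 in the same test.

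Klk7 and Spink5 did not pass in this step, and the mice went in opposite directions. Klk7 was at 341 and 591 CPM in terminally differentiated KCs, below the differentiated level in mouse 1 and above it in mouse 2 (log2 difference -0.33, 95% interval -0.90 to 0.24). Spink5 was at 311 and 613 CPM, again lower in mouse 1 and higher in mouse 2 (-0.27, from -0.84 to 0.31). In mouse 2 a single barcode held 153 of the 370 Klk7 UMIs. St14 was at 13.4 and 27.1 CPM and its difference did not pass (edgeR adjusted p = 0.909).

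Klk10 was called higher in terminally differentiated KCs (log2 difference 1.54 ± 0.51, edgeR adjusted p = 0.0380), but 1 barcode of mouse 2 held 29 of the 34 Klk10 UMIs there and mouse 1 had 1 UMI. The log2 difference was -1.91 in mouse 1 alone, without mouse 2, and -0.87 when the class was limited to barcodes with at least 1% of Lor and Lce1 UMIs (35 of 46 and 24 of 60). Under that limit Klk5 (log2 difference -1.2, edgeR adjusted p = 0.0796) and Klk11 (-0.57, 0.312) no longer passed, and Klk7 was called lower (-0.996, 0.0359). In all, 2 of the 10 genes were higher and 5 lower, against 15.2% higher and 15.6% lower (30.9% called) of all genes tested.

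**Figure D3:**
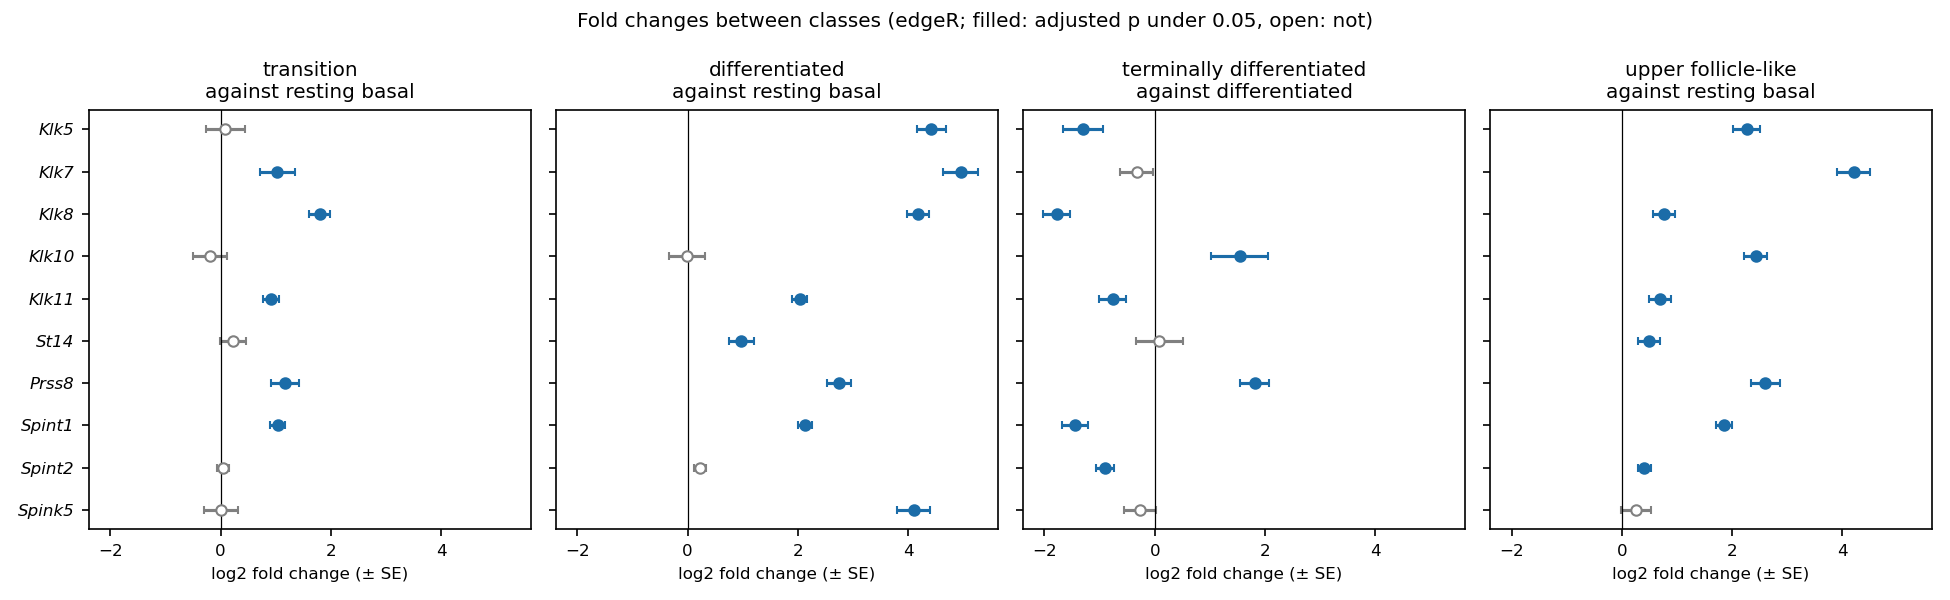
Log2 differences of the 10 genes with bars of ± 1 SE from the fits over all genes, for transition and differentiated against resting basal, terminally differentiated against differentiated, and upper follicle-like against resting basal KCs. Filled points had an adjusted p under 0.05. Klk5, Klk7, Klk8 and Spink5 lie above 4 in differentiated KCs, and in upper follicle-like KCs Klk7 lies at 4.20 and Spink5 at 0.26, an open point.

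Outside the IFE, the upper follicle-like KCs (315 and 299 cells) had a high level of Klk7 and Klk10 without a matching level of Spink5. All values against resting basal KCs that follow share those control sums. Klk7 was at 467 and 280 CPM, against 14.4 and 21.0 CPM in resting basal KCs, a log2 difference of 4.20 ± 0.30 (edgeR adjusted p = 5.67e-12). Klk10 was at 75.0 and 66.6 CPM, the highest of the named classes in each mouse, with a log2 difference of 2.43 ± 0.21 (edgeR adjusted p = 3.11e-10). Both genes were uneven over these cells, and the median cell had 0 UMIs of each. The tenth of the cells with the most Klk7 (32 and 30 cells) held 64.6% and 73.6% of its UMIs. For Klk10 the corresponding shares were 68.0% and 69.1%. Spink5 was at 34.6 and 49.3 CPM, each above the resting basal value of the same mouse, but the 2 ranges overlapped and the log2 difference of 0.26 ± 0.27 did not pass (edgeR adjusted p = 0.478).

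Upper follicle-like KCs were also higher in Klk5 (45.0 and 40.6 CPM, log2 difference 2.27), Prss8 (12.5 and 10.0 CPM, 2.61), Spint1 (79.9 and 71.0 CPM, 1.86), Klk8 (40.7 and 31.0 CPM, 0.77), Klk11 (19.01 and 17.0 CPM, 0.69), St14 (16.2 and 15.3 CPM, 0.50) and Spint2 (314 and 249 CPM, 0.41). The adjusted p of these genes ranged from 1.24e-11 for Spint1 to 0.0449 for St14. That made 9 of 10 genes higher and 0 lower, against 21.5% higher and 18.4% lower (39.9% called) of the 14170 genes tested.

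Set directly against differentiated IFE KCs, a comparison added after the levels had been seen, the upper follicle-like KCs were lower in Spink5 (log2 difference -3.81 ± 0.27, edgeR adjusted p = 8.41e-12), Klk8 (-3.39 ± 0.19, 5.92e-14), Klk5 (-2.13 ± 0.22, 7.50e-09) and Klk11 (-1.32 ± 0.20, 3.57e-06). They were higher in Klk10 alone of the 10 (2.46 ± 0.25, edgeR adjusted p = 6.20e-09). That was 1 of 10 higher and, with Klk7, 5 lower, against 24.8% higher and 19.6% lower (44.5% called) of all genes tested. Klk7 was lower by 0.72 ± 0.26 (edgeR adjusted p = 0.0247), but the log2 difference was 0.93 when the mice were clustered without integration. The reference class was then not the same. Differentiated KCs were 1286 cells in place of 398, with Krt14 at 8593 CPM in place of 1575 CPM, and no cluster was named transition. The part of this change in the Klk7 difference was not tested.

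These levels gave the classes different proportions of kallikrein to inhibitor transcripts. There were 1.47 and 1.22 UMIs of Klk5 and Klk7 for each UMI of Spink5 in differentiated KCs and 1.30 and 1.10 in terminally differentiated KCs. In upper follicle-like KCs there were 14.8 and 6.51, the highest of the classes in both mice. Melanocyte-like cells had 0.699 and 0.769, and resting basal KCs 0.872 and 0.804, so the basal proportion was near that of background. The size of such a proportion is one of UMIs and not of protein, and only its change between classes is read here. Only kept cells enter it. Barcodes removed for 10% or more mitochondrial UMIs held 7984 and 10952 UMIs of Spink5, against 4670 and 7135 in the kept cells. They held 576 and 760 UMIs of Klk5 and 3390 and 4552 of Klk7, so Spink5 UMIs were the more numerous there. The proportions of differentiated KCs thus describe the cells that passed the filters. Both Klk7 and Spink5 were counted in 14.6% and 16.4% of upper follicle-like KCs, and Klk7 alone in 31.1% and 27.4%.

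**Figure D4:**
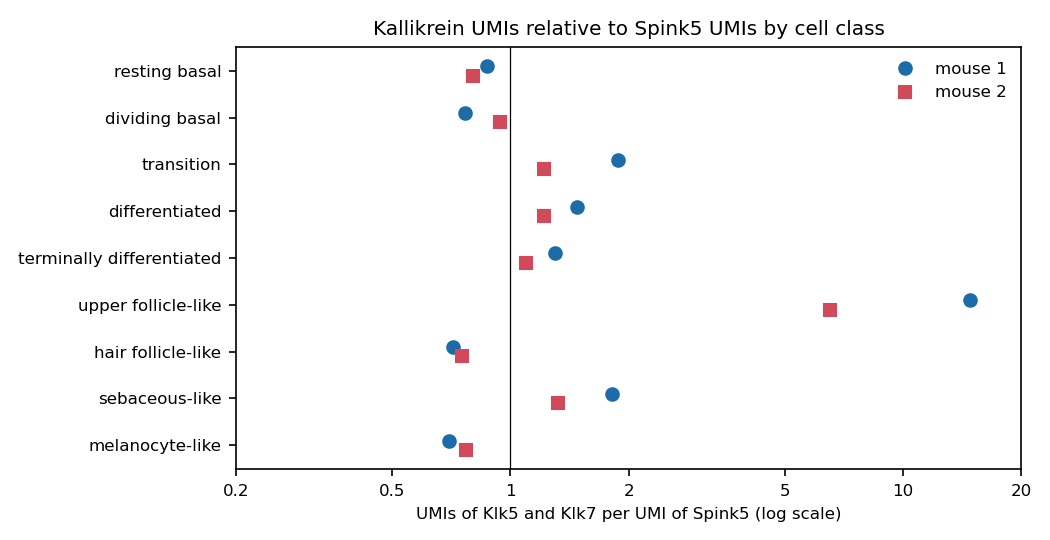
UMIs of Klk5 and Klk7 together per UMI of Spink5 in each mouse, on a log axis with a line at 1. Shown are the IFE classes and upper follicle-like, hair follicle-like, sebaceous-like and melanocyte-like cells, and the other classes are left out. Barcodes removed by the filters do not enter the values. Upper follicle-like KCs stand apart at 14.8 and 6.51, and the IFE classes lie between 0.768 and 1.87.

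Of the 5 kallikreins, 4 were lower in hair follicle-like KCs than in resting basal KCs. In hair follicle-like KCs (1746 and 2628 cells), Klk11 was at 1.5 and 2.20 CPM and Klk10 at 3.25 and 3.75 CPM. Both genes were lower than in resting basal KCs without overlap, with log2 differences of -2.53 ± 0.23 (edgeR adjusted p = 8.72e-10) and -1.89 ± 0.25 (6.46e-07). Klk8 (-1.01) and Klk5 (-0.72) were also lower, with adjusted p of 0.000129 and 0.0362, Klk7 was not called (12.9 and 21.4 CPM), and Spint1 was slightly higher (28.5 and 25.2 CPM, log2 difference 0.36, adjusted p = 0.0415). That is 4 of 10 genes lower and 1 higher, against 16.3% and 19.2% (35.4% called) of all genes tested. With the mouse as a block, Prss8 (log2 difference 0.59) and Spint2 (-0.30) were called as well, with adjusted p of 0.0476 and 0.00880.

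Among KC classes, St14 transcripts were highest in inner root sheath-like cells. The class was named from a joint list of inner root sheath and hair shaft markers, and the 2 were not separated. Many cells of this class were dividing, as the 14 dividing markers summed to 4626 and 4523 CPM, against 354 and 399 CPM in resting basal KCs. The part of division in the differences that follow was not tested. St14 was at 37.9 and 32.0 CPM in inner root sheath-like cells (355 and 578 cells), against 9.21 and 10.5 CPM in resting basal KCs, a log2 difference of 1.69 ± 0.18 (edgeR adjusted p = 6.95e-09). Spint1, whose product inhibits matriptase, was at 44.0 and 36.8 CPM there (log2 difference 0.99 ± 0.14, edgeR adjusted p = 1.49e-06). Prss8, the partner protease, was at 0.953 and 1.52 CPM and did not pass (edgeR adjusted p = 0.383). Klk5, Klk8, Klk10 and Klk11 were lower in these cells, by 1.12 to 2.54 on the log2 scale. Together 2 of 10 genes were higher and 4 lower, against 24.9% and 26% (51% called) of all genes tested.

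In sebaceous-like cells (99 and 148 cells), Prss8 was at 13.2 and 6.18 CPM, above both resting basal values, with a log2 difference of 2.54 ± 0.32 (edgeR adjusted p = 2.70e-07). Spint1 was at 47.8 and 36.1 CPM (log2 difference 1.2, adjusted p = 6.89e-07), and Klk8 at 34.7 and 25.4 CPM (0.70, adjusted p = 0.0154). Klk10 (-1.47) and Klk11 (-0.94) were lower, with adjusted p of 0.00386 and 0.0174. Thus 3 of 10 genes were higher and 2 lower, against 23% and 23.8% (46.8% called) of all genes tested.

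A pair of immune classes of the epidermis had high levels of some of the 10 genes, Klk8 and St14 in T cell-like and Spint1 in Langerhans-like cells. These comparisons with resting basal KCs were added after the levels had been seen. In T cell-like cells (52 and 38 cells), Klk8 was at 292 and 278 CPM, close to differentiated KCs, against 18.4 and 19.01 CPM in resting basal KCs. The log2 difference was 3.76 ± 0.22 (edgeR adjusted p = 1.05e-13). At least 1 UMI of Klk8 was counted in 86.5% and 94.7% of these cells, with a median of 3 and a maximum of 9 and 8 UMIs per cell. These shares lay slightly above those of differentiated KCs, which were deeper, and in melanocyte-like cells of like depth Klk8 was at 4.97 and 7.17 CPM. Klk5 and Klk7, which were high with Klk8 in differentiated KCs, were at 0 and 2 UMIs and at 6 and 4 UMIs. St14 was also higher, at 50.1 and 33.9 CPM on 28 and 14 UMIs (log2 difference 1.95 ± 0.32, edgeR adjusted p = 2.04e-05). These were the highest values of any named class in each mouse. In mouse 2 the value lay so close to that of inner root sheath-like cells, on 315 UMIs, that the 2 classes cannot be ranked. Klk10, Klk11, Spint1 and Spint2 were lower, the first 3 on at most 2 UMIs in a mouse, and no UMI of Prss8 was counted in either mouse, which allows up to 5.37 and 7.26 CPM. So 2 of 10 genes were higher and 4 lower, against 16.2% and 18.1% (34.3% called) of all genes tested. Genes called higher made up 47.1% of the calls, and 58.7% with DESeq2's size factors in place of TMM, which moved the median of all genes by 0.19 on the log2 scale and left Klk8 and St14 called higher.

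**Figure D5:**
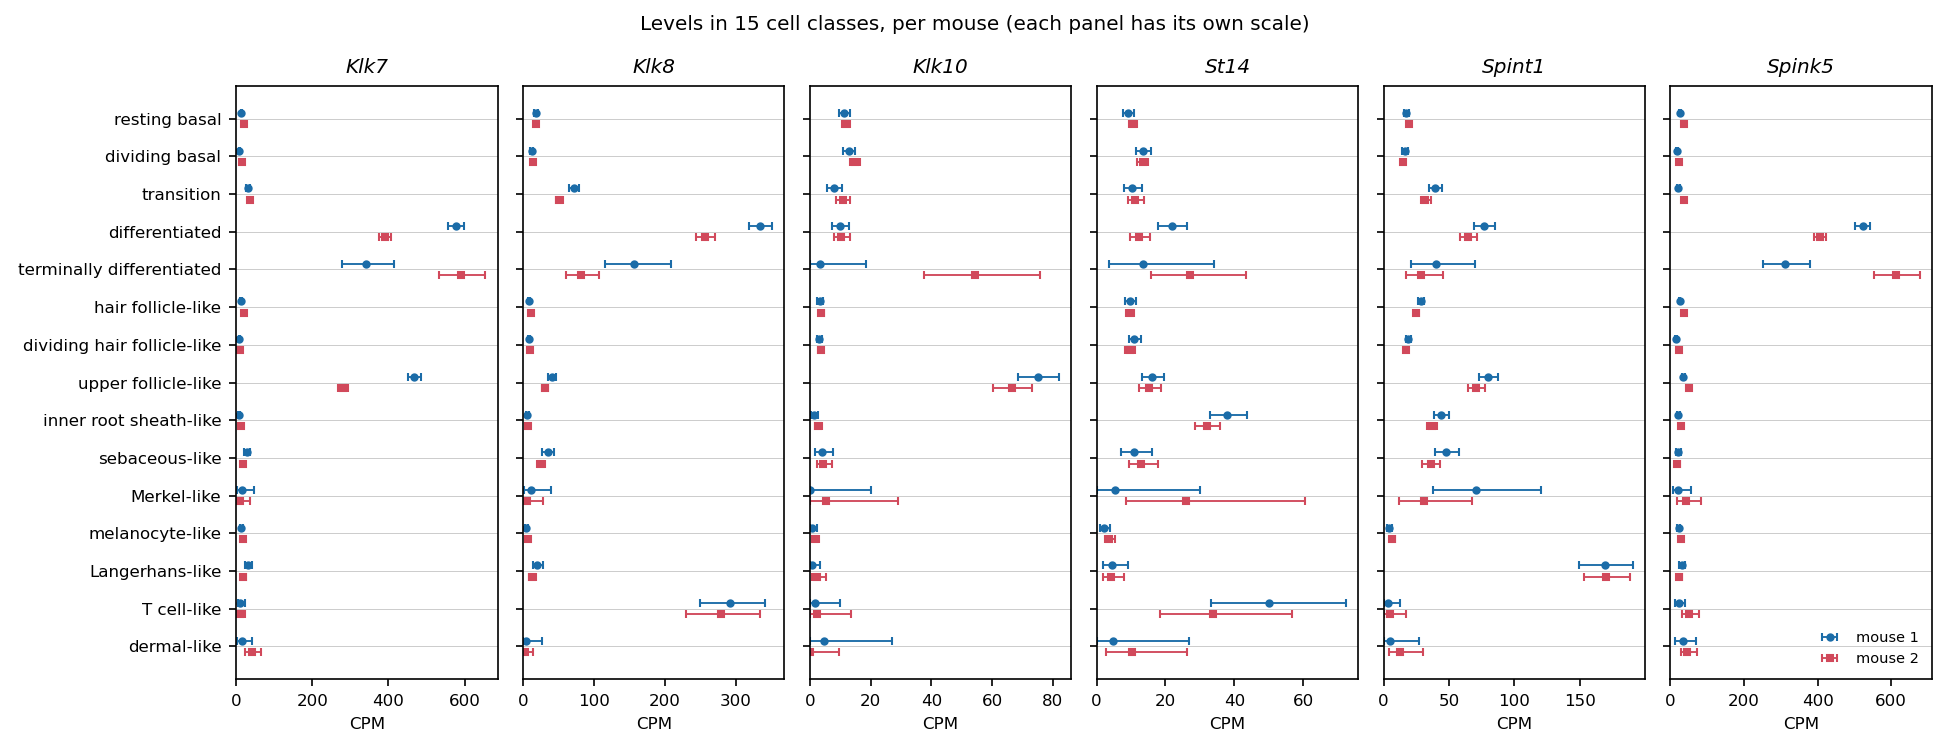
Levels of Klk7, Klk8, Klk10, St14, Spint1 and Spink5 in 15 cell classes, in CPM for each mouse, with exact 95% Poisson intervals that cover counting error only. Klk8 is high in differentiated KCs (334 and 257 CPM) and T cell-like cells (292 and 278 CPM), Spint1 is highest in Langerhans-like cells (169 and 170 CPM), and Klk10 in upper follicle-like KCs (75.0 and 66.6 CPM).

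In Langerhans-like cells (145 and 193 cells), Spint1 was at 169 and 170 CPM, the highest of all classes in both mice, against 17.5 and 19.4 CPM in resting basal KCs. The log2 difference was 3.39 ± 0.15 (edgeR adjusted p = 4.16e-17). A UMI of Spint1 was counted in 80.7% and 78.8% of these cells and in 4.35% and 6.46% of melanocyte-like cells, at median depths of 9639 and 9802 against 8786 and 9674.5 UMIs. Spint2 went the other way, with 37.3 and 29.3 CPM, close to the 28.1 and 32.2 CPM of melanocyte-like cells, and a log2 difference of -2.32 ± 0.16 (edgeR adjusted p = 1.60e-12). When doublets were left out, Spint2 was at 10.1 and 16.5 CPM in Langerhans-like cells. Klk10, Klk11 and St14 were also lower. In all 1 gene was higher and 4 lower, against 25.1% and 24.2% (49.3% called) of all genes tested.

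The rest of the network was followed in 50 further genes grouped by function, of which 49 were in the files and 34 passed the filter on low counts in the IFE fit. Of these 34, 26 were higher and 4 lower in differentiated than in resting basal KCs, with a median log2 difference of 3.36, against 28.9% higher and 29.8% lower (58.7% called) of all genes tested, whose median was -0.04. A gene could pass the filter through the class in which it was high alone, so these counts and those of the groups that follow describe the genes that passed and support nothing about the groups. Among the other kallikreins, Klk9 (log2 difference 2.65 ± 0.32), Klk13 (4.04 ± 0.20) and Klk6 (3.50 ± 1.29) were called higher, with adjusted p of 1.45e-05, 5.74e-09 and 0.0360, and the other 5 of 8 had too few UMIs to be tested. The call for Klk6 rests on 9 UMIs in the differentiated KCs of mouse 1, and mouse 2 had 0. Klk9 rose further in terminally differentiated KCs (3.59 ± 0.30, edgeR adjusted p = 2.40e-06), whereas Klk8 and Klk11 fell.

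Of 14 other serine proteases 8 were tested, and 7 were higher and 1 lower in differentiated KCs (28.9% and 29.8% of all genes). The type II membrane protease Tmprss4 (log2 difference 6.07 ± 0.21), Tmprss13 (3.39 ± 0.26) and Tmprss11f (3.55 ± 0.63) had the highest mean CPM of the group over the IFE sums. Tmprss4 fell and Tmprss11f rose in terminally differentiated KCs, by -3.60 and 3.77 on the log2 scale (edgeR adjusted p = 2.46e-06 and 0.000165).

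Inhibitors other than the members gave 5 higher and 1 lower of 6 tested in differentiated KCs (28.9% and 29.8% of all genes). These included the serpins Serpinb5 (log2 difference 2.24), Serpinb8 (1.96) and Serpinb2 (3.33). Serpinb5 and Serpinb2 fell in terminally differentiated KCs, by -2.55 and -2.15, while Serpinb8 rose by 1.82. In upper follicle-like KCs none of 7 tested was higher and 1 was lower (Serpinb2, log2 difference -1.74), where 7 of 10 other serine proteases were higher and 0 lower. Of all genes tested in that comparison 21.5% were higher and 18.4% lower. The difference between these groups was not tested.

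The substrates were also measured. Of 12 listed targets 11 were tested, and 7 were higher and 0 lower in differentiated KCs (28.9% and 29.8% of all genes). Dsg1a, a desmosomal cadherin cut by the kallikreins, was higher by 4.26 ± 0.11, and Flg, the filaggrin precursor, by 4.78 ± 0.48, though the symbol Flg stands for several identifiers in the files and its value is uncertain. Epcam, a substrate of matriptase, was not called (0.06 ± 0.12, edgeR adjusted p = 0.703). F2rl1, the protease-activated receptor PAR2, was not called in differentiated KCs (-0.20 ± 0.11, edgeR adjusted p = 0.148) and was higher in upper follicle-like KCs (1.54 ± 0.12, edgeR adjusted p = 1.54e-11). Epcam was higher there as well (2.13 ± 0.21, edgeR adjusted p = 2.86e-09). In terminally differentiated KCs Dsg1a fell by 2.31 on the log2 scale, and Cdsn, the corneodesmosome protein cut by KLK5 and KLK7, rose by 2.98.

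Of the 6 other enzymes of filaggrin and envelope processing, 4 were higher and 2 lower in differentiated KCs (28.9% and 29.8% of all genes). The aspartic protease gene Asprv1 (4.33 ± 0.29), Blmh (1.69 ± 0.10) and Ctsd (1.27 ± 0.10) had the highest mean CPM of the group over the IFE sums.

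Over the 30 sums of 15 classes and 2 mice, the levels of Klk5 followed those of Klk7 (Pearson's r = 0.923 on the scale of log2 CPM with 10 added) and of Spink5 (0.891). For Klk8 and Spink5 the value was 0.638, and for Klk10 and Spink5 it was 0.334. The values describe these sums, which share the 2 libraries. Of 14170 genes, those most like Spink5 were Hal, the histidine-degrading enzyme histidase (0.969), and Flg (0.969). Those most like Klk5 were Dsc1, a desmosomal cadherin (0.955), and Orm1 (0.940). Klk7 was most like Orm1 (0.965), Klk8 most like Galnt6 (0.890), Klk11 most like Rnf208 (0.917), Prss8 most like Xkrx (0.974) and Klk10 most like Krt4, a keratin of mucosal epithelia (0.857). St14 had the lowest closest match of the 10, with Exosc3 (0.755). The closest gene was Lsr for Spint1 (0.837) and Klc3 for Spint2 (0.865).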

How the data were processed

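Reads had been aligned to mm10 by the authors (Cell Ranger, version 3.0.2). The deposited files held raw UMI counts for every gene in each listed barcode, with no normalization. These barcodes had a median of 8660 and 9085 UMIs in mouse 1 and mouse 2, so they were a selection and not all barcodes of the runs. Barcodes with 10% or more mitochondrial UMIs were still among them. The labels name version 1 of the 10x Chromium 3' chemistry and the study's methods name version 3.1, and which was used is not settled here. Both chemistries read the 3' end of transcripts, so counts of overlapping genes can be shared.

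Following the study's methods, cells were kept if they had 900 to 7700 genes and a mitochondrial share below 10%, log-normalized and integrated between mice in Seurat 5.3.0 with 2000 variable genes. The number of dimensions (30) and the resolution (0.8) were not taken from the study. The 10 genes and 49 further genes of the network were kept out of clustering and of naming, and clusters were named from marker lists, with a naming rule that was set with the clusters in view. The genes and lists were chosen with earlier results of these data known. Scrublet in scanpy 1.11.5 scored doublets. Its automatic threshold marked 2 cells in mouse 1, so the threshold of mouse 2 (score 0.234) was applied to both, marking 2.16% and 3.50% of cells, which were kept and left out in an alternative.

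UMI counts were summed per mouse and class, since cells are not replicates, and tested with edgeR 4.0.16 (R 4.3.3, TMM scaling, the filter filterByExpr, quasi-likelihood F-tests). P-values were adjusted over all genes by Benjamini-Hochberg, with a threshold of 0.05. One fit held the 10 sums of the IFE classes (12019 genes, 5 residual degrees of freedom) and the other all 30 sums of the named classes (14170 genes, 15). The standard error was taken from the log2 fold change and the F statistic. Network genes named in the text were the 3 of each group with the highest mean level over the IFE sums, together with genes of the same groups named beside a count. DESeq2 1.42.0, its size factors, no filter on low counts, mouse as a blocking factor, doublets left out, a limit of 5% mitochondrial UMIs, another resolution (1.2), no integration and each mouse alone were tried as alternatives. Sums are paired by animal. Their deviations correlated between classes with r from -0.014 to 0.37 (median 0.052 over 105 pairs). Comparisons with T cell-like and Langerhans-like cells and of upper follicle-like with differentiated KCs were added after the levels had been seen.

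On simulated data with 200 genes changed by 2 on the log2 scale, 94.5% of them were recovered among 11652 genes for differentiated against resting basal KCs, 59% for terminally differentiated KCs (11642 genes), 91% for upper follicle-like KCs (13384 genes) and 58% for T cell-like cells (13424 genes). Levels have exact 95% Poisson intervals and shares exact binomial ones, which cover counting error only, and a count of 0 was taken to allow up to 3 counts of the total. Positions are from GENCODE M21 and sequences from RefSeq. Figures were drawn with matplotlib 3.10.9.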

Additional observations from a re-analysis of the deposited data

How the results depend on the processing

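Of the log2 differences of the 10 genes recomputed under alternatives, 35 newly passed, 39 no longer passed and 3 that had been called turned in direction. The other 1023 kept their side of the threshold or came from 1 mouse alone, which has no test. A difference that was not called could change direction and still be counted among the 1023. Of the 3 that turned, 2 were Klk10 in terminally differentiated KCs. It was at -0.87 with the barcodes limited to those with at least 1% Lor and Lce1 UMIs and at -1.91 in mouse 1 alone. In mouse 2 alone Klk10 kept its direction, at 2.11. The other was Klk7 in upper follicle-like against differentiated KCs, at 0.93 without integration. Leaving out a mouse leaves 1 sum per class, so those values carry no test. The causes were not tested.

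Leaving out cells with 5% or more mitochondrial UMIs, which removes many cells of most classes, lowered the number of genes called to 4664 for differentiated, 1586 for transition, 880 for dividing basal, 1991 for hair follicle-like, 3367 for upper follicle-like and 3990 for sebaceous-like against resting basal cells, and to 2349 for terminally differentiated against differentiated KCs. The last was 2384 with the stricter terminal barcodes. With the mouse as a block (the paired analysis), 4596 genes were called in dividing basal KCs in place of 2454, and the other comparisons stayed within 1.5 times. The number of the 10 genes called in transition KCs was 2 under the limit of 5%. In dividing basal KCs it was 0 under that limit, 2 with DESeq2's size factors, 3 without doublets and 5 both without the filter on low counts and with the block. It was 3 in hair follicle-like KCs without doublets and 2 in sebaceous-like cells under the limit of 5%. Beyond the results named in the report, the block also called Spint1 lower in upper follicle-like than in differentiated KCs (log2 difference -0.25). DESeq2's size factors moved the median of all genes by over 0.1 on the log2 scale only for T cell-like (0.19) and Langerhans-like cells (0.11). Without integration no cluster was named transition, so that comparison was not run there. The differentiated class then held 1286 cells in place of 398, so comparisons with it did not use the same class.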

Other observations

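Barcodes removed for their mitochondrial share carried more Spink5, Klk7 and Klk5 than the cells that were kept, and less Klk10 (6.62 and 9.69 against 10.9 and 10.4 CPM), while Spint2 was at 167 and 162 against 180 and 158 CPM. Those barcodes, with 10% or more mitochondrial UMIs (2777 and 3315, with a median of 2292 and 2378 UMIs), held Spink5 at 777 and 884 CPM, against 49.1 and 47.9 CPM over the kept cells. Klk7 was at 330 and 368 CPM against 74.1 and 46.6 CPM, and Klk5 at 56.1 and 61.4 CPM against 17.9 and 12.0 CPM. The suprabasal keratin Krt10 was at 12546 and 16191 CPM in the removed barcodes of mouse 1 and mouse 2, so the levels above describe the part of the differentiated epidermis that passed the filters.

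Barcodes with under 900 genes and under 10% mitochondrial UMIs (394 and 630) held Lor at 46845 and 11845 CPM and Prss8 at 129 and 26.7 CPM. Spink5 was at 340 and 324 CPM and Klk7 at 371 and 306 CPM in them. No test was made on removed barcodes.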
